A study of Canis lupus familiaris with 124 samples.

Results

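TCC1509 is a cell line from a transitional cell carcinoma (TCC) of the canine prostate, and 19 of the 32183 genes measured were expressed in it alone among 8 canine cell lines. A gene was included when its expression was at least 10 on the counts-per-million scale (CPM) in TCC1509 and under 1 CPM in each of the 7 other lines. DCN also met these limits and was left out, as were COL3A1 and TCF7, which did not meet them. The choice therefore rests on the measured levels in the cell lines, and the level in TCC1509 against the other lines is given as a description without a test. The tissues played no part in the choice. The study also profiled the line Adcarc1258, using data from earlier work. That line is not among the 8, so whether it expressed these genes was not examined.

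The study set tumor cell lines of dogs beside the tissues they came from. TCC1509 and the prostate TCC P6.1, its tissue of origin, came from patient 6, a neutered male of 9 years, and the tissue Ln6.2 is a TCC metastasis in a lymph node of the same dog, from which no line was made. The other tissues were the prostate adenocarcinoma (PAC) P2 of a male dog of 6 years, the lymph node metastases Ln4.2 and Ln4.3 of PAC from 1 neutered male of 6 years, and the bladder TCC B7, B8, B9 and B10 of female dogs of 8 to 11 years, the dog of B9 being neutered. The lines TCC0840 and TCC1506 were from TCC as well. PAC had given Adcarc0846, Adcarc1508 and Adcarc1511.1, and its metastases had given Metadcarc1511.3 and Metadcarc1511.2. The labels give no treatment of any line or tissue. TCC1509 was sequenced as 3 libraries, of which replicate 1 was at passage 77 and replicates 2 and 3 were at passage 85. The line stands for the tumor of a single dog, and each tissue is a single library. The cell lines were grown as cultures, and the tissues can also hold connective tissue, vessels and leukocytes. By the study's account of the histology, B7 was nearly all tumor cells, while Ln4.2 and Ln4.3 also held lymphoid and connective tissue.

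The tissue libraries held 11920463 to 18086895 counts and the pooled cell lines 33500674 to 55488800, of which TCC1509 had 51976428. A count of 0 in a tissue allows a level of up to 0.166 to 0.252 CPM (3 counts), which covers counting error only. TCC1509 was poor in epithelial transcripts. Of 19 epithelial genes it expressed 15 at 1 CPM or more, and their summed level was 1389 CPM against 4901 to 8173 CPM in the other lines. The study reports low epithelial marker expression in Adcarc1258 as well, a line not examined here. TMPRSS2 and TP63 were at 0 in TCC1509, but TP63 was also at 0 in Adcarc0846 and at no more than 0.119 CPM in 5 further lines. Of 20 leukocyte genes 4 reached 1 CPM in TCC1509, with a sum of 9.27 CPM.

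Tumor cell lines lose the connective tissue, vessels and leukocytes of their tumor, and lines differ in the genes they express. Of the genes, 4 had a symbol in the sources used here. GDF6 is a secreted growth factor of the bone morphogenetic protein family, known for its part in skeletal and eye development. PRSS56 is a trypsin-like serine protease known from the growth of the eye. FANK1 carries a fibronectin type III domain and ankyrin repeats and is known from the testis. FLI1 is a transcription factor of the ETS family that acts in blood and endothelial cells. The other 15 genes are listed by Ensembl identifier only. Of these, the Gene Ontology terms in the study's additional files place the first by level under collagen fibril organization, the second under negative regulation of angiogenesis and the ninth under neural crest cell migration. Those term lists were drawn from genes that the study selected on these samples.

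In TCC1509 the 19 genes ranged from 10.3 to 605.5 CPM, and below they are ranked by this level. The gene ranked 19 lay nearest to both limits, at 10.3 CPM in TCC1509 and 0.864 CPM in TCC1506. Just outside were a gene at 9.64 CPM in TCC1509 and one at 29.5 CPM that reached 1.16 CPM in TCC0840. ENSCAFG00000006138 was first by far. Its libraries were at 549.6, 471.4 and 782.4 CPM in replicates 1, 2 and 3, while its highest level in another line was 0.193 CPM. Per length, on the transcripts-per-million scale (TPM), it was also first at 272.9 TPM, and the 19 genes had a median of 24.6 TPM. FANK1 was at 62.9 TPM, GDF6 at 39.7 TPM, PRSS56 at 24.6 TPM and FLI1 at 9.30 TPM.

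Across the libraries of TCC1509, the spread (SD over mean) had a median of 22.2% over the 19 genes. FANK1 was at 42.4, 44.3 and 48.6 CPM in replicates 1, 2 and 3, or 45.1 ± 3.17 (SD, n = 3). PRSS56 was at 36.7, 36.9 and 23.8 CPM, or 32.5 ± 7.48 (SD, n = 3). Replicate 3 was the low library for PRSS56. GDF6 was at 37.1, 26.5 and 29.1 CPM, or 30.9 ± 5.54 (SD, n = 3). FLI1 was at 25.5, 23.4 and 23.3 CPM, or 24.1 ± 1.22 (SD, n = 3). FLI1 had no count in any of the 7 other lines, which puts TCC1509 at least 269-fold higher by the floor of 3 counts. ENSCAFG00000039092 had no count in the other lines either, which puts TCC1509 at least 116-fold higher. It is the shortest of the genes at 607 bases, and its libraries were at 10.7, 10.5 and 9.94 CPM. This identifier, ENSCAFG00000012211 and ENSCAFG00000017681 were singled out after their values had been seen.

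**Figure D1:**
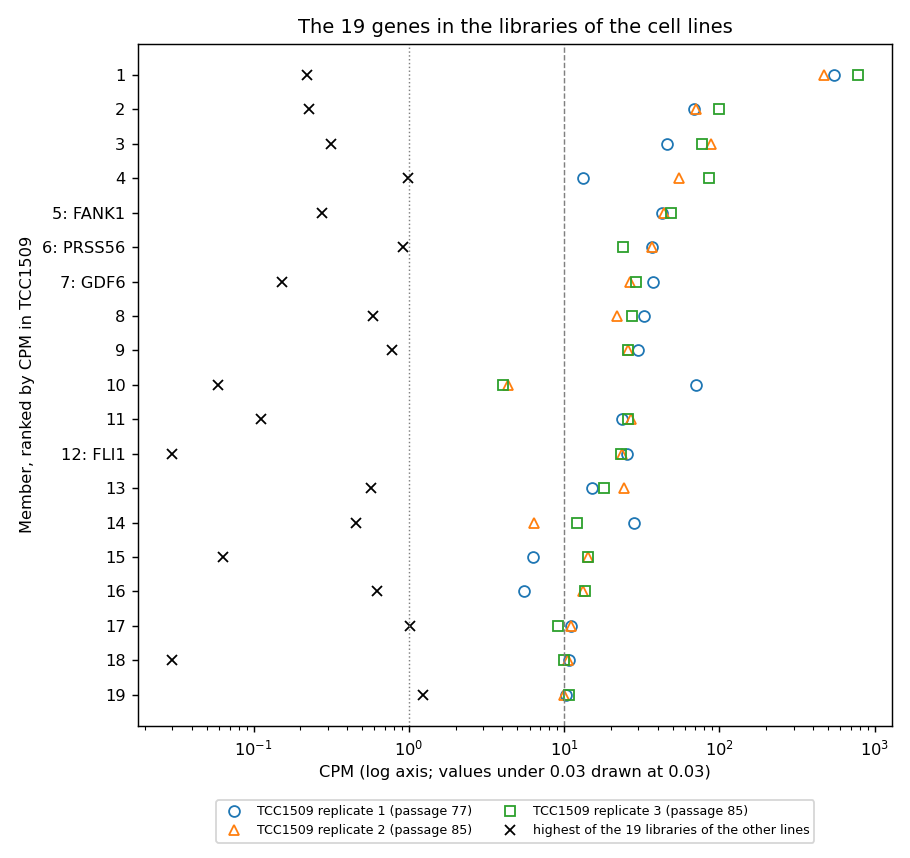
CPM on a log axis of the 19 genes in each TCC1509 library and, as crosses, in the highest of the 19 libraries of the other lines. The dashed and dotted lines mark 10 and 1 CPM. The gene ranked 10 lies at 70.5 CPM in replicate 1 and near 4 CPM in both others.

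Replicate 1 decided the place of 2 genes. ENSCAFG00000017681, ranked 10, was at 70.5 CPM in replicate 1 and at 4.32 and 4.05 CPM in replicates 2 and 3. Replicate 1 was the only library at passage 77, so passage and library cannot be told apart. Without replicate 1 the gene was under 10 CPM and so was the gene ranked 14, which left 17 genes. Without replicate 2 or without replicate 3, only the gene ranked 16 was lost and 1 other gene entered. The gene ranked 4 went the other way and was at 13.2 CPM in replicate 1 against 54.6 and 85.3 CPM in replicates 2 and 3.

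Passage 77 was compared with passage 85 in a fit of all 22 cell line libraries, with the cell line as a covariate. By edgeR's quasi-likelihood test with Benjamini-Hochberg adjustment, none of the 14608 genes tested was called at an adjusted p of 0.01 and a fold change of 2, a share of 0%, and 290 (1.99%) had an unadjusted p under 0.05. All 19 genes were tested and 3 of them had an unadjusted p under 0.05. ENSCAFG00000017681, which was singled out for this very pattern, had a log2 fold change of 4.07 (SE 0.51) toward passage 77. DESeq2 called 1 gene (0.00685%) and the 3 TCC1509 libraries alone gave 13 calls among 11965 genes (0.109%), this gene being among them both times. These calls restate the values by which it was picked, and passage 77 is 1 library, so they are no independent support. With the replicate number as a block, no gene was called.

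The tissues of patient 6 held nearly all of the genes. P6.1 expressed 17 of 19 at 1 CPM or more, against 41.1% of all genes in that tissue, and Ln6.2 expressed 18 of 19, against 41.8%. In the PAC tissues 13 of the 19 reached 1 CPM in Ln4.2 (43.7% of all genes), 13 in Ln4.3 (43.1%) and 12 in P2 (43.1%). In the bladder tissues 11 did in B10 (43% of all genes), 10 in B8 (41.1%), 8 in B9 (40.6%) and 5 in B7 (38.3%). By the same limits, 92 genes were expressed in TCC1506 alone, of which 59 (64.1%) reached 1 CPM in its own tissue B7, and 13 in Adcarc0846 alone, of which 9 (69.2%) reached it in P2. Whether these shares differ from that of TCC1509 in P6.1 (89.5%) was not tested. The gene ranked 10 was under 1 CPM in all 9 tissues, as were 50.2% of all genes, with 0 counts in P6.1. Of the 19, 3 reached 1 CPM in all of them, against 33.8% of all genes.

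**Figure D2:**
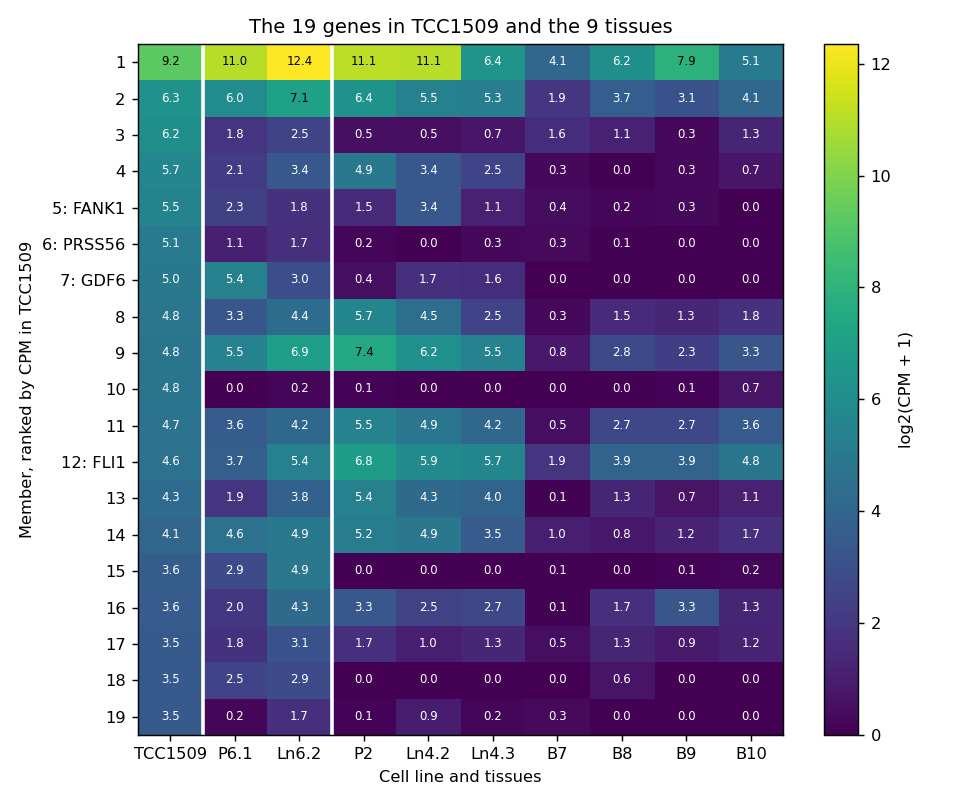
Expression as log2(CPM + 1) of the 19 genes (rows) in TCC1509 and the 9 tissues (columns). The genes ranked 15 and 18 are near 0 in the 7 tissues of other dogs, apart from 0.6 for rank 18 in B8, while the genes ranked 1, 2 and 12 are found in all tissues.

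The levels in the tissues differed from those in the line, whose RNA was also isolated with another kit, so that kit and kind of sample cannot be told apart. TCC1509 was higher than P6.1 for 15 of the 19 genes and higher than Ln6.2 for 12. It was higher than every tissue for 8. The tissue with the highest level was Ln6.2 for 9 genes and P2, from another dog, for 7. P6.1, the tissue of origin, was highest for 1 gene, GDF6.

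GDF6 is the growth factor among the named genes. It was at 42.1 CPM in P6.1, close to the 30.9 CPM of the line, and at 6.78 CPM in Ln6.2. In the other tissues it was at 2.28 CPM in Ln4.2, 2.09 CPM in Ln4.3 and 0.358 CPM in P2, and no count was found in B7, B8, B9 or B10. Both tissues of patient 6 lay above all others, and by the floor P6.1 was at least 167-fold and Ln6.2 at least 27-fold higher than the bladder tissues.

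The protease PRSS56 and FANK1 were much lower in the tissues than in the line. PRSS56 was at 1.11 CPM in P6.1 and 2.32 CPM in Ln6.2, and at 0 to 0.257 CPM in the 7 other tissues, with a median of 0.0559. Both tissues of patient 6 lay above the rest, and TCC1509 was 29.2-fold higher than P6.1. FANK1 was at 4.04 CPM in P6.1 and 2.39 CPM in Ln6.2, and in the 7 other tissues it ranged from 0 to 9.33 CPM with a median of 0.321. The highest was Ln4.2, from another dog, so the groups overlapped for FANK1.

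FLI1 was found in all tissues. It was at 12.3 CPM in P6.1 and 41.0 CPM in Ln6.2. In the 7 other tissues it ranged from 2.63 CPM in B7 to 110.6 CPM in P2, with a median of 27.0. P6.1 was thus the second lowest of the 9 tissues, and the line, at 24.1 CPM, lay inside their range. The sums of the leukocyte and endothelial genes are given beside it. Both were lowest in B7 (250.7 CPM over 20 genes and 83.4 CPM over 9) and the endothelial sum was highest in P2 (2004 CPM). The leukocyte sum was highest in Ln4.3 (6207 CPM), with P2 at 6063 CPM. It was higher in P6.1 (3877 CPM) than in Ln6.2 (2679 CPM) and Ln4.2 (2426 CPM), where FLI1 was higher. FLI1 itself is 1 of the 9 endothelial genes. In TCC1509 the endothelial marker CD93 was at 0, KDR was at 0.0192 CPM and VWF at 2.21 CPM. FLT4 was at 3.61 CPM. Of the 20 leukocyte genes 8 were at 0, SPI1 among them, and the highest was LAPTM5 at 4.06 CPM, which was at no more than 0.808 CPM in the other lines. Their part in the tissue levels of FLI1 was not tested. In a bulk tissue, fewer cells of a type and less RNA per cell cannot be told apart.

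**Figure D3:**
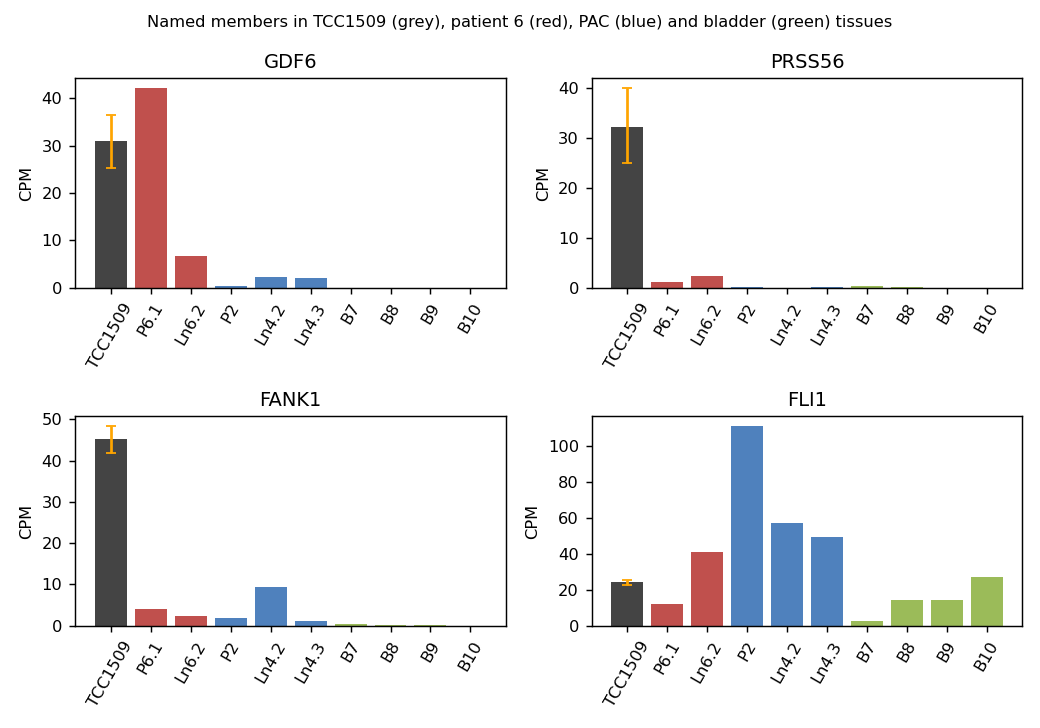
CPM of GDF6, PRSS56, FANK1 and FLI1 in TCC1509 (pooled libraries, with the mean ± SD of 3 libraries in orange), the tissues of patient 6, the PAC tissues and the bladder tissues, which are 1 library each. GDF6 is highest in P6.1 at 42.1 CPM, and FLI1 is highest in P2 at 110.6 CPM.

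Among the genes without a symbol, ENSCAFG00000012211 and ENSCAFG00000039092 had few or no counts in the tissues of other dogs. ENSCAFG00000012211 was at 11.5 CPM in TCC1509, 6.36 CPM in P6.1 and 28.6 CPM in Ln6.2, and in the 7 other tissues at 0 to 0.168 CPM with a median of 0. ENSCAFG00000039092 was at 10.4 CPM in TCC1509, 4.53 CPM in P6.1 and 6.22 CPM in Ln6.2, and B8 was the one other tissue with counts, at 0.559 CPM. For both the groups did not overlap. ENSCAFG00000006138 was at 2100 CPM in P6.1 and 5235 CPM in Ln6.2, but also at 2233 CPM in P2 and 2125 CPM in Ln4.2. It was at 82.9 CPM in Ln4.3 and at 16.2 to 245.2 CPM in the bladder tissues, so that its groups overlapped.

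Whether the tissues of patient 6 differed from the 7 others was tested with edgeR. Of 15756 genes tested none was called, a share of 0%, and 1107 (7.03%) had an unadjusted p under 0.05. DESeq2 called 114 (0.724%). Of the 19 genes 18 were tested, the gene ranked 10 being too low. None of the 18 was called and 6 had an unadjusted p under 0.05. The log2 fold change was above 0 for 16 of the 18, against 40.6% of all genes tested, and the median was 1.73 against -0.16. Without Ln6.2 it was above 0 for 9 of 15, since 3 genes that had been above 0 then fell out of the test and others turned below 0. Of the 18 genes, 4 passed the filter on low counts only with the tissues of patient 6, which favors genes higher there. They were PRSS56, ENSCAFG00000012211, ENSCAFG00000039092 and the gene ranked 19. All but the gene ranked 19 were among the 6 with an unadjusted p under 0.05, so that count is partly set by the filter. The gene ranked 19 passed through Ln6.2 (37 counts) together with Ln4.2 (13 counts), and had 2 counts in P6.1. Of the 14 genes that met the filter within the 7 other tissues, 12 were above 0, against 39.7% of all such genes, with a median of 1.23. Both tissues of patient 6 lay above all 7 others for 6 of the 18, where 4.3% of all genes tested did. They were GDF6, PRSS56, ENSCAFG00000012211, ENSCAFG00000039092 and the genes ranked 3 and 17. Of the 14 it was 3, against 4.01% of all genes that met the filter in this way.

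GDF6 met the filter without patient 6 too, but only by Ln4.2 (32 counts) and Ln4.3 (31 counts), which come from 1 dog. It was higher by 5.31 on the log2 scale (SE 1.65, adjusted p = 0.438 by edgeR). For the genes that entered the test through patient 6 the changes are descriptions. The log2 fold change was 8.66 for ENSCAFG00000012211 (SE 1.04), 5.98 for ENSCAFG00000039092 (SE 1.45) and 4.22 for PRSS56 (SE 1.05). ENSCAFG00000012211 was among the 12 genes (0.0762%) that passed at an adjusted p of 0.05. ENSCAFG00000006138 had a log2 fold change of 2.61 (SE 1.53, adjusted p = 0.769 by edgeR). The change was 0.95 for FANK1 (SE 1.59, adjusted p = 0.913 by edgeR) and -0.37 for FLI1 (SE 1.09, adjusted p = 0.950 by edgeR), both smaller than their SE. P6.1 and Ln6.2 come from 1 dog, so these p-values hold for 2 samples of that dog and not for dogs in general. At this spread, the test recovered 56.5% of simulated 16-fold changes and 3% of 4-fold changes.

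Against the 4 bladder tissues alone, the genes differed more. All 17 genes tested had a log2 fold change above 0, against 44.2% of the 14939 genes, with a median of 4.29. The lower bound of GDF6 also lay above this median, so setting GDF6 to it could not move the median. Of the 17 genes, 13 had an unadjusted p under 0.05, against 15.3% of all genes, and none was called. Both tissues of patient 6 lay above all bladder tissues for 15 of the 17, against 12.3% of all genes tested. These counts include GDF6, PRSS56, FANK1 and the genes ranked 4, 15 and 18, which entered the test only through patient 6. All of these had an unadjusted p under 0.05 by edgeR, so the counts over the 17 genes are descriptions. Of the 11 that met the filter within the bladder tissues, both tissues of patient 6 lay above for 9, against 11.1% of such genes. The bladder tissues came from females and from another organ, so dog, sex and organ cannot be told apart here.

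**Figure D4:**
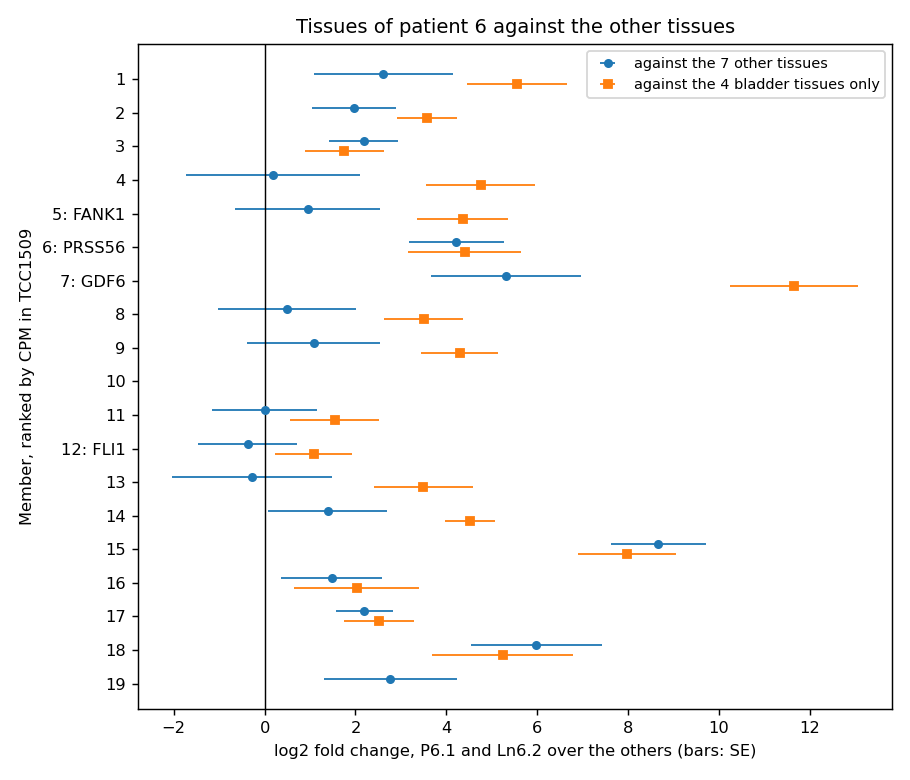
Log2 fold changes (bars: SE) from edgeR of P6.1 and Ln6.2 over the 7 other tissues and over the 4 bladder tissues alone. The gene ranked 15 is at 8.66 against the 7 others, and FLI1 is at -0.37 against the 7 others and 1.08 against the bladder tissues.

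Most of the genes were higher in the metastasis than in the primary tumor. Ln6.2 was at least 2-fold higher than P6.1 for 12 of the 18 genes with 10 or more counts in either, against 15.1% of 15031 genes, and 1 gene was at least 2-fold lower, against 13.3%. The lower gene was GDF6, whose ratio of Ln6.2 to P6.1 was 0.161. The median log2 ratio was 1.23 for the 18 genes and -0.07 for all genes. Each tissue was 1 library, so this difference has no replicate check. ENSCAFG00000012211 was 4.50-fold higher in Ln6.2, FLI1 3.34-fold, ENSCAFG00000006138 2.49-fold and PRSS56 2.10-fold.

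The levels of fibroblast and matrix genes are set beside those of the 19 genes. The summed level of 24 such genes was 46980 CPM in Ln6.2 and 4240 CPM in P6.1. It was 81840 CPM in P2, 50780 CPM in Ln4.2, 9001 CPM in Ln4.3 and 1345 to 1778 CPM in the bladder tissues. The median of the 19 genes was 13.3 CPM in Ln6.2, 9.33 in Ln4.2, 9.09 in P2, 4.53 in P6.1, 4.51 in Ln4.3 and 0.257 to 1.34 in the bladder tissues. Single genes departed from this order: GDF6 was at 0.358 CPM in P2, where the sum was highest, and at 42.1 CPM in P6.1. The part of connective tissue in the tissue levels was not tested. In TCC1509 itself the sum was 214.4 CPM, 10 of the 24 genes reached 1 CPM and 2 were at 0. BGN (73.6 CPM), CCDC80 (69.0 CPM) and SPARC (36.3 CPM) were the highest, and BGN and SPARC were at no more than 1.63 and 1.47 CPM in the other lines. CCDC80 was higher in Adcarc1511.1 (79.2 CPM), Metadcarc1511.2 (93.2 CPM) and Metadcarc1511.3 (152.8 CPM). COL5A2 went the other way, at 1.56 CPM in TCC1509 against 15.9 to 1447 CPM in the other lines. COL1A1 and COL1A2 were at 0.250 and 0.115 CPM in TCC1509. Over the other lines the sum ranged from 100.9 to 1842 CPM.

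**Figure D5:**
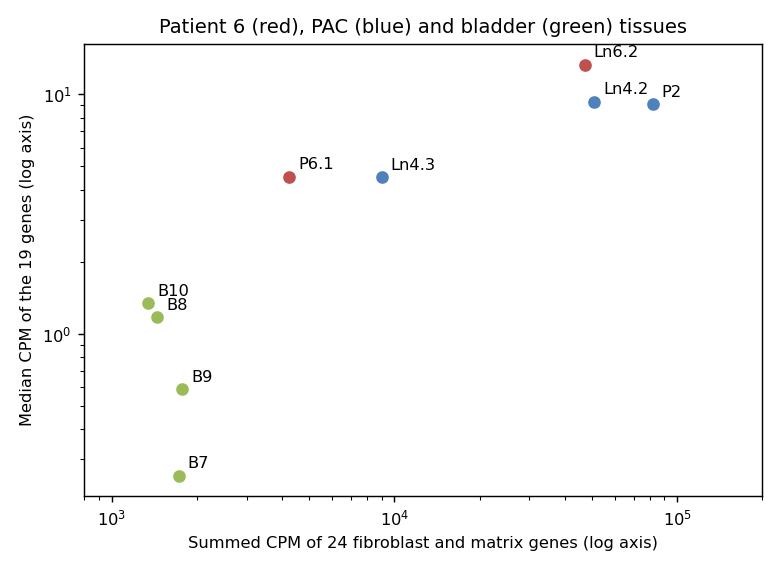
Median CPM of the 19 genes against the summed CPM of 24 fibroblast and matrix genes in the 9 tissues, both on log axes. The 4 bladder tissues lie lowest on both axes, and Ln6.2, Ln4.2 and P2 lie highest on both.

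TCC and PAC tissues were also compared, since TCC1509 is a TCC line. None of the 15756 genes was called by edgeR, a share of 0%, while 2586 (16.4%) had an unadjusted p under 0.05 and DESeq2 called 335 (2.13%), none of them among the 19. Of the 18 genes tested, 7 had a log2 fold change above 0 toward TCC, against 58.1% of all genes tested, with a median of -0.17. Among the 7 were PRSS56, ENSCAFG00000012211, ENSCAFG00000039092 and the gene ranked 19, which passed the filter only with the TCC tissues of patient 6. That favors genes higher there, so the count of 7 is partly set by the filter. The fit takes 2 tissues each of patients 4 and 6 as separate. With counts summed per dog, 5 of 16 were above 0, with a median of -1.51. Without the tissues of patient 6 it was above 0 for 1 of 14, with a median of -4.07, and without Ln6.2 for 3 of 15. FLI1 was lower in TCC by 1.87 on the log2 scale (SE 0.67, adjusted p = 0.242 by edgeR), which was not called. Since edgeR called no gene in any of the 3 comparisons, the lack of calls is no result about any gene list. This holds for the lists of other growth factors, developmental transcription factors and neural crest genes.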

How the data were processed

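Per the labels' processing notes and the study's methods, single-end reads were trimmed (Trimmomatic 0.36), mapped by STAR 2.5.3 to the dog genome build CanFam3.1 and quantified by RSEM 1.3.0. The authors deposited expected counts and TPM per lane, and 17.4% of the expected counts above 0 were not whole. The library kit was not stated to keep strand, so reads of overlapping genes or close copies cannot be told apart.

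Expected counts were summed over lanes and libraries and rounded. The 31 libraries were grouped by their labels, and lanes 2 to 4 of 1 Adcarc0846 library, whose labels count upward, were joined by title. CPM were calculated from each total. Symbols came from the study's additional files (1120 of 32183 identifiers), and the reference table matched none.

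edgeR 4.0.16 (R 4.3.3, TMM, quasi-likelihood, Benjamini-Hochberg) was used on genes with at least 10 counts in at least 2 samples. The SE given with it was worked back, as the absolute log2 fold change over the square root of the F statistic. A gene was called at an adjusted p up to 0.01 with a change of 2-fold or more. The test was tried on simulated data. DESeq2 1.42.0 and other settings were alternatives. Python 3.11.15, pandas 2.3.3, numpy 2.4.6 and matplotlib 3.10.9 were also used.

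The members and lists were chosen with earlier results of these data known. Every member with a symbol was named, as was the identifier highest in TCC1509 and in the tissues of patient 6. The labels describe cultures seeded in triplicate.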

Additional observations from a re-analysis of the deposited data

Results flagged for a closer look

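Single values that lay far from the rest of their group were found in 6 of 16 groups examined, by Dixon's ratio of the gap to the range. By chance about 1 in 20 groups would, but that rate does not apply to groups mostly at 0, nor to the 3 identifiers ENSCAFG00000012211, ENSCAFG00000017681 and ENSCAFG00000039092, which were picked after their values were seen. Among the 6 TCC tissues, GDF6 stood apart in P6.1 at 42.13 CPM, with Ln6.2 next at 6.78 CPM. ENSCAFG00000012211 stood apart in Ln6.2 at 28.58 CPM, with P6.1 next at 6.36 CPM. Among the 7 tissues of other dogs, FANK1 stood apart in Ln4.2 at 9.33 CPM, with P2 next at 1.86 CPM, and ENSCAFG00000039092 in B8 at 0.559 CPM, the others being at 0. ENSCAFG00000017681 stood apart in B10 at 0.587 CPM among the 7 tissues and among the 6 TCC tissues, which is 7 counts.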

How the results depend on the processing

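The limits set the number of genes. A lower limit of 5 CPM gave 30 genes and one of 20 CPM gave 12, an upper limit of 2 CPM gave 29, and limits met in each library gave 12. With TPM in place of CPM there were 17, 13 of them shared. At 5 CPM, 9 of the 19 were detected in P6.1. Both tissues of patient 6 lay above the bladder tissues alone for 15 genes (12.3% of all genes tested), and above the 7 others for 3 where the filter was met within those 7. Both settings were chosen after seeing the data, as was leaving out a TCC1509 library from the rule. For patient 6 against the other tissues, an adjusted p of 0.05 called 12 genes (0.0762%), 1 of them among the 19. DESeq2 called 114 (0.724%), also with 1. Both times it was ENSCAFG00000012211, which entered the test only through patient 6, so these calls are descriptions. With each tissue left out, the genes above 0 numbered 9 to 18, and the change of FLI1 ranged from -1.54 to 0.27, above 0 without P2 (0.15) and without P6.1 (0.27). Against TCC tissues alone it was 1.08. For TCC against PAC, DESeq2 called 335 genes. The genes above 0 numbered 1 without patient 6, and 3 to 9 with each tissue left out. For passage, DESeq2 and the test without a filter called 1 gene each, ENSCAFG00000017681, and the 3 TCC1509 libraries alone called 13, 1 of them among the 19. The replicate block called 0. The numbers name cultures and were not stated to pair them across lines. The cause of these changes was not tested.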
